A study of Mus musculus with 5 samples.

Results

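Neutrophils of the mouse lung were picked out of an immune-cell scRNA-seq time series of bleomycin injury by their own transcripts, and their maturity and states are described here library by library. A barcode counted as a neutrophil where S100a8 and S100a9 together made up at least 1% of its UMIs (unique molecular identifiers, 1 for each captured transcript), where Csf3r was detected, and where Cd3e, Cd79a and Car4 were all at 0. This gave 2602 neutrophils among the 35279 barcodes kept in 4 libraries, and among 44772 kept barcodes in all 5 libraries of the series. Because these 6 genes chose the cells, their levels are a description and support nothing. The unit of level is CPM, a gene's count per 1000000 UMIs summed over the cells of a library. S100a8 was at 60693, 38255, 47287 and 41429 CPM in sham, day 3, day 14 and day 28, S100a9 at 66802, 64194, 53675 and 42096 CPM, and Csf3r, the receptor for the granulocyte growth factor G-CSF, at 2210, 1735, 1683 and 2075 CPM.

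All libraries were made from lungs of adult mice (7 weeks or older, both sexes, mixed C57BL6 and 129 background, given tamoxifen by gavage) with the genotype Ms4a3-CreER;R26-tdT, in which a tamoxifen-inducible Cre, driven by the Ms4a3 gene of bone marrow myeloid progenitors, switches on a red fluorescent reporter, so that sham and injured mice carried the same alleles. The sham library came from PBS-treated mice, and the others from mice given bleomycin through the trachea and taken 3, 7, 14 or 28 days afterwards. The lungs were perfused and digested with collagenase, red cells were lysed, and the remaining immune cells were loaded on the 10X Genomics 3′ platform. There is 1 library for each time point, the number of mice in it is not given in the sources used here, and so no difference between time points was tested. Intervals are 95% and cover counting error only.

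Neutrophils are short-lived granulocytes that leave the bone marrow after their precursors have stopped dividing and have filled their granules in order, with primary, secondary and then tertiary granule proteins. Mature cells have largely lost the granule transcripts and carry CXCR2, which holds them in the circulation, and later CXCR4, by which aged cells return to the marrow. In the lung they form a standing pool in the small vessels and enter the tissue after injury, where they release IL-1β and chemokines.

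The sham library held 829 neutrophils, which was 8.97% of its kept barcodes (interval 8.40 to 9.58). There were 640 at day 3 (8.0%, interval 7.41 to 8.61), 707 at day 14 (9.11%, interval 8.48 to 9.78) and 426 at day 28 (4.14%, interval 3.77 to 4.55). The day 28 share was thus the low one, and the other 3 lay between 8.0% and 9.11%. The day 7 library is set aside, because its barcodes start at 4624 UMIs, a depth that 34 of the sham neutrophils, 106 of day 3, 54 of day 14 and 19 of day 28 reached. Neutrophils are shallow cells. Their median was 2650 UMIs in sham, 3428 at day 3, 2792 at day 14 and 2246.5 at day 28, against 14441, 10123.5, 16577 and 14225.5 UMIs in the other kept barcodes of the same libraries. Their median number of genes was 1024, 1164, 1093 and 939 in the same order. Pairs of libraries shared 22 to 41 barcode sequences, none of them a neutrophil in both. Predicted doublets, which were kept, numbered 8 in sham, 34 at day 3, 20 at day 14 and 16 at day 28 among the neutrophils.

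The shares depend on 1 of the negative genes. Car4, a carbonic anhydrase gene of alveolar capillary endothelium that mouse alveolar macrophages also express, was at 0 in 829 of the 1140 sham barcodes that met all other criteria, but in 640 of 710 at day 3, 707 of 751 at day 14 and 426 of 452 at day 28. Without the Car4 criterion the shares were 12.3% in sham, 8.87% at day 3, 9.68% at day 14 and 4.40% at day 28, so that sham stood above day 14 and not below it. In sham alveolar macrophages it was at 1270 CPM. It was also found in T cells, which should lack it, at 376 CPM in sham against 75.8, 60.3 and 75.8 CPM in those of day 3, day 14 and day 28. The part of such background in the loss of sham barcodes was not tested. The S100a8 and S100a9 limit passed through few cells. Between 17 and 31 neutrophils in each library lay just inside it, at 1% to 1.5%, and 17 to 32 barcodes lay just outside, at 0.5% to 1%. Retnlg, a marker the rule did not use, stood at 883, 1049, 686 and 1006 CPM just inside in sham, day 3, day 14 and day 28, and at 867, 574, 494 and 421 CPM just outside. Cells with at least 5% of the 2 transcripts had Retnlg at 7962 to 9924 CPM, so cells on both sides of the limit were poorer in it. In sham and day 14 the cells just inside also held Cd74, of antigen-presenting cells, at 8422 and 5556 CPM.

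The label held against markers outside the rule. All 12 genes of a neutrophil list that includes Retnlg, the chemokine receptor Cxcr2, the gelatinase Mmp9, the decoy receptor Il1r2 and the histamine-forming enzyme Hdc were detected in each library, and they summed to 21991 CPM in sham, 21958 at day 3, 19118 at day 14 and 16442 at day 28. In the T cells of the same libraries the list summed to 143, 150, 178 and 128 CPM. Retnlg itself was at 6799, 7236, 6017 and 6349 CPM in neutrophils and was found in 83.3% to 93.0% of them. The defining eosinophil genes Il5ra, Epx and Prg2 were at 0 in every library, and the 5 basophil and mast cell genes summed to at most 1.15 CPM. Ly6g, the surface protein by which mouse neutrophils are usually sorted, was sparse, at 193 CPM in sham, 432 at day 3, 231 at day 14 and 56.8 at day 28, and was detected in 25.0%, 49.4%, 32.5% and 7.04% of cells. It was thus undetected in more cells than not in every library. These shares count all UMIs of a cell, and day 3 cells were the deepest and day 28 cells the shallowest.

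Nearly all of the neutrophils that passed the gate were mature by their transcripts. The 6 primary granule genes, among them Mpo (myeloperoxidase) and Elane (neutrophil elastase), summed to 11.6 CPM in sham and to 9.96, 5.05 and 2.54 CPM at day 3, day 14 and day 28. The 7 measured genes of replication and mitosis summed to 74.6, 24.1, 135 and 28.0 CPM, below the 523, 718, 237 and 163 CPM of T cells. To compare cells at 1 depth, each was reduced at random to 800 UMIs, the least a kept barcode could have. At least 2 UMIs of the replication list were then found in 1 of 829 cells in sham, 0 of 640 at day 3, 4 of 707 at day 14 and 1 of 426 at day 28, and the count of 0 allows a share of up to 0.575%. Cxcr2, the receptor of circulating mature cells, was present throughout, at 940, 1254, 1271 and 1060 CPM in sham, day 3, day 14 and day 28.

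The secondary granule transcripts Camp, Ngp and Ltf (cathelicidin, neutrophilic granule protein and lactoferrin) were held by very few cells. At least 10 of the 800 UMIs came from these 3 genes in 5 sham neutrophils (0.603%, 0.196 to 1.40), 4 at day 3 (0.625%), 5 at day 14 (0.707%) and 1 at day 28 (0.235%). Among the drawn UMIs, these 15 cells carried 96.2%, 86.0%, 89.9% and 85.9% of the Camp, Ngp and Ltf UMIs of the neutrophils in their libraries. The other cells were almost empty of them, with 811, 617, 680 and 419 cells at 0. The plot of secondary granule transcripts shows this gap.

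**Figure D1:**
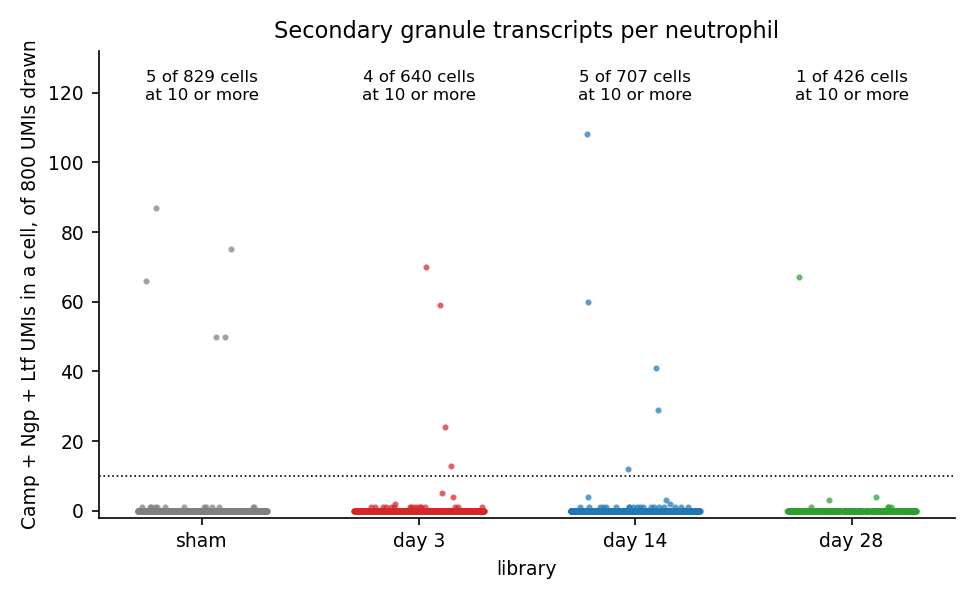
Each point is 1 neutrophil; the vertical axis gives its Camp, Ngp and Ltf UMIs among 800 drawn, the horizontal axis the library (points are spread sideways at random), and the dotted line marks 10 UMIs. Between 1 and 5 cells of each library lie at or above the line, up to 108 UMIs, and nearly all others lie at 0.

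These 15 cells were deeper than the rest, with a median of 9343 UMIs in sham against 2648.5, and of 8848.5, 7547 and 8900 UMIs at day 3, day 14 and day 28 against 3424, 2781 and 2244. One of them, at day 3, was a predicted doublet. Summed over the 4 libraries, Lcn2 (lipocalin 2, another secondary granule protein) was at 16242 CPM in them and 1201 CPM in all other neutrophils, and Cebpe, the transcription factor of secondary granule synthesis, at 205 and 16.8 CPM. Ly6g was at 1875 and 232 CPM and Mmp8, the neutrophil collagenase, at 4432 and 721 CPM. Other transcripts of mature cells did not share 1 direction. Retnlg was at 13583 CPM in the 15 cells and 6529 in the rest, and G0s2 at 3531 and 3877 CPM. Il1b was at 601 CPM in the 15 cells and 17429 CPM in the rest, Cxcr2 at 410 and 1158 CPM, Cxcr4 at 73.3 and 949 CPM, and Csf3r at 220 and 1923 CPM. No UMI of Mki67, Top2a, Mpo or Elane was counted in the 15 cells. As the cells were chosen by Camp, Ngp and Ltf, these values are a description of them and no test. In sham 4 of the 5 and at day 3 all 4 carried the red reporter in their 800 UMIs. None of the 5 at day 14 did, nor the 1 at day 28. The gate needed a Csf3r UMI, and cells as low in Csf3r as these 15 can lack one at the usual depth. Csf3r was detected in 1162 of 1177 sham barcodes that met the S100a8 and S100a9 limit and in 756 of 774 at day 3. At day 14 and day 28 it was 776 of 791 and 462 of 493. Any granule-rich cells lost this way were not counted, so the shares hold for barcodes that passed the gate.

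The summed levels of Camp, Ngp and Ltf thus rest on very few cells. Camp was at 535 CPM in sham, 263 at day 3, 679 at day 14 and 197 at day 28, while the share of neutrophils with any Camp UMI was only 0.939% to 2.65%. Lcn2 was spread more widely, in 59.7% to 62.7% of the cells of each library at full depth, at 1774, 1140, 1386 and 1504 CPM. In the whole list of 6 secondary granule genes, 3 or more of 800 UMIs were found in 15.6% of sham cells, 11.2% at day 3, 13.4% at day 14 and 20.4% at day 28. The share in T cells was at most 0.197%, and the medians in neutrophils were 0 or 1 UMI.

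Each bleomycin library was compared with sham by the ratio of CPM + 10 on the log2 scale, over genes that reached 100 CPM in at least 1 of the pair, and a gene was counted as higher or lower where it differed at least 2-fold. At day 3, 149 of 1494 genes were higher (9.97%) and 18 were lower (1.2%), with a median log2 ratio over all genes of -0.01. The day 14 comparison had 81 of 1488 genes higher (5.44%) and 29 lower (1.95%), with a median of 0.05. The day 28 comparison had 116 of 1531 higher (7.58%) and 55 lower (3.59%), with a median of 0.08. The 3 comparisons share the sham library. The later splits depend on the scaling. With TMM factors the median log2 ratio moved down by 0.29 at day 14 and by 0.42 at day 28, and the counts became 48 higher and 71 lower at day 14 and 66 higher and 165 lower at day 28, whereas day 3 had 162 higher and 18 lower. Of the 4 secondary granule genes tested, Ltf was lower at day 3, where 1.2% of all genes were, none was lower at day 14 (1.95% of all genes), and Camp and Ngp were lower at day 28 (3.59% of all genes). None was higher, against 9.97%, 5.44% and 7.58% of all genes. With TMM scaling Ltf was also lower at day 28.

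The day 3 neutrophils were set apart by interferon-stimulated genes, which cells switch on through STAT and IRF factors after sensing type I interferon. At day 3 all 13 genes of the interferon list were at least 2-fold higher than in sham, against 9.97% of all genes. The list's median log2 ratio was 3.37, and it summed to 2175 CPM in sham, 23906 at day 3, 1425 at day 14 and 1855 at day 28. Only 5 members reached 100 CPM in sham or the later library, and of these none was past 2-fold at day 14 and 1, Oasl2, was higher at day 28 (202 against 80.4 CPM). Of all genes, 5.44% were higher and 1.95% lower at day 14, and 7.58% higher and 3.59% lower at day 28. Among the 8 list members below 100 CPM, the day 14 log2 ratios of Oasl1, Irf7, Oas3 and Ifit3 were -1.61, -1.36, -1.12 and -1.09. With TMM scaling day 3 still had all 13, while of 6 tested Rsad2, Irf7 and Ifitm3 were lower at day 14, Isg15 and Irf7 were lower at day 28, and Oasl2 was no longer higher there. Under that scaling 162 of 1643 genes were higher at day 3, and 71 of 1533 were lower at day 14 and 165 of 1527 at day 28.

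Ifit3, which binds viral RNA with its partner Ifit1, had the highest ratio of any named gene at day 3. It was at 27.8 CPM in sham, 2855 at day 3, 7.77 at day 14 and 36.5 at day 28, and its log2 ratio at day 3 was 6.24. Only day 3 stood apart, and the other 3 libraries stayed below 40 CPM. Ifit1 was at 34.8, 1667, 14.8 and 43.2 CPM. The ubiquitin-like modifier Isg15 was at 434, 4591, 388 and 247 CPM. At full depth, which differs between the libraries, its share of positive cells was 44.8%, 98.8%, 52.8% and 27.0%. Ifitm3, a membrane protein that blocks virus entry, was at 957, 6024, 552 and 696 CPM. Rsad2 (viperin, an antiviral enzyme) went from 127 to 2134 CPM at day 3 and stood at 59.9 and 168 CPM later, and Irf7, the factor that amplifies interferon production, stood at 94.5, 1574, 30.7 and 43.2 CPM. The other 7 members were higher at day 3 by log2 ratios between 2.26 (Oas3) and 4.44 (Ifit2).

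**Figure D2:**
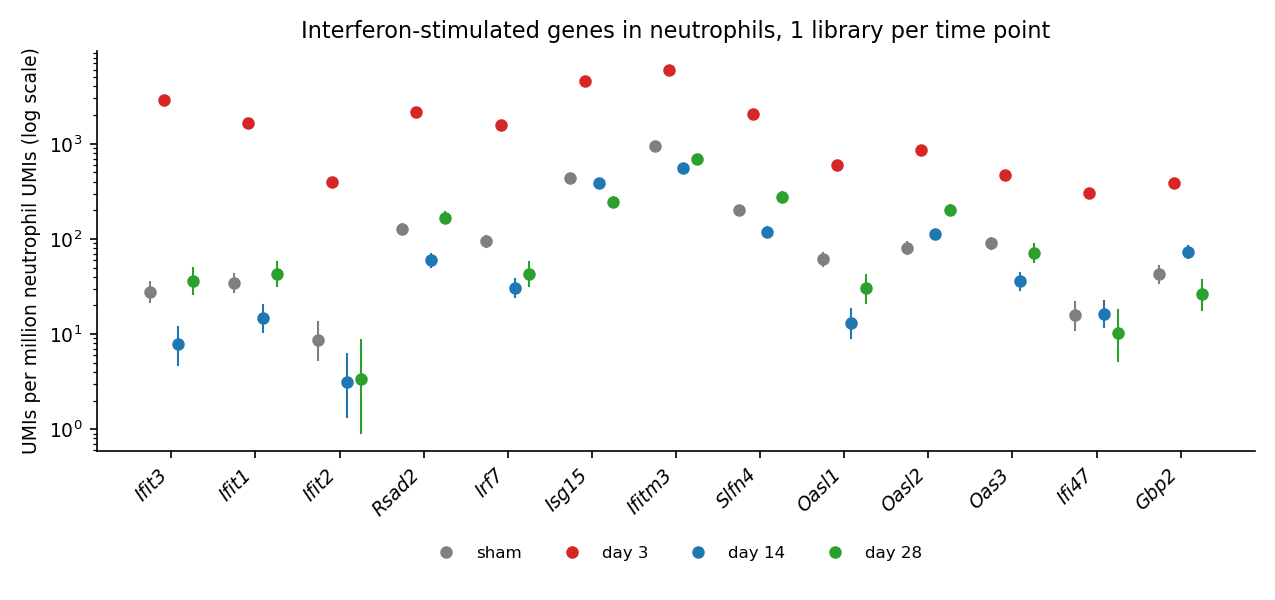
Points give the level of each of the 13 interferon-list genes in the summed neutrophils of the 4 libraries, in CPM on a log axis, and bars give 95% Poisson intervals. Day 3 lies above the other 3 libraries for every gene, from 303 CPM for Ifi47 to 6024 CPM for Ifitm3.

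Interferon acts on such genes through a promoter element with repeated GAAA letters that IRF and STAT factors bind, and 6 promoters are printed to show it. The pattern GAAANNGAAA, searched on both strands with overlapping matches kept, was found in the 300-base promoters (250 bases before to 50 bases after the start, RefSeq, GRCm38.p6) of 7 of the 13 list genes, all of which matched the table. It occurs in 1131 of all 32851 promoters of that length (3.44%). The sequences below run 5′ to 3′ on the gene's strand and lie upstream of the start, outside the transcript, with the matched bases in capitals. A match on the opposite strand appears as its reverse complement, with TTTC in place of GAAA.
Isg15, chr4:156200855-156200916 (- strand): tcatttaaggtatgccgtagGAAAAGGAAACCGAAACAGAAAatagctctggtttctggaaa
Ifit1, chr19:34640765-34640833 (+ strand): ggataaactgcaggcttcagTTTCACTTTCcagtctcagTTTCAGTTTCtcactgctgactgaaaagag
Ifit3, chr19:34583353-34583436 (+ strand): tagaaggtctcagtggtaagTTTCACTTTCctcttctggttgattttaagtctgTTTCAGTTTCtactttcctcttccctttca
Rsad2, chr12:26456543-26456592 (- strand): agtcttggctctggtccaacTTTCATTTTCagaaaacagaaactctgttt
Oas3, chr5:120777705-120777754 (- strand): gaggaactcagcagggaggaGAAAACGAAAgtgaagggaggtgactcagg
Gbp2, chr3:142620584-142620633 (+ strand): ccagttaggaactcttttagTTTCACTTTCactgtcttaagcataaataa
Isg15 holds 3 matches that overlap, and Ifit1 and Ifit3 hold 2 each. The capitals begin 78 bases upstream of the start in Isg15, 104 in Ifit1, 156 in Ifit3, 120 in Rsad2, 75 in Oas3 and 59 in Gbp2. The match of Ifitm3 lies partly downstream and is not printed. These matches describe the letters of the windows and were not tested for binding in these cells.

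The day 3 state was shared by nearly all cells and was no small subset. After reduction to 800 UMIs, 634 of 640 day 3 neutrophils (99.1%, 98.0 to 99.7) carried 3 or more interferon-list UMIs, against 23.5% in sham (interval 20.7 to 26.6), 13.6% at day 14 (interval 11.1 to 16.3) and 24.7% at day 28 (interval 20.6 to 29.0). The median cell held 19 such UMIs at day 3 and 1 in each of the other libraries. The first decile of the day 3 cells, 9 UMIs, lay above the ninth decile of the sham cells, 4 UMIs. The 3-UMI limit cut through the other libraries, with 124 sham cells 1 UMI below it and 85 at it, but only 5 and 1 cells at day 3.

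**Figure D3:**
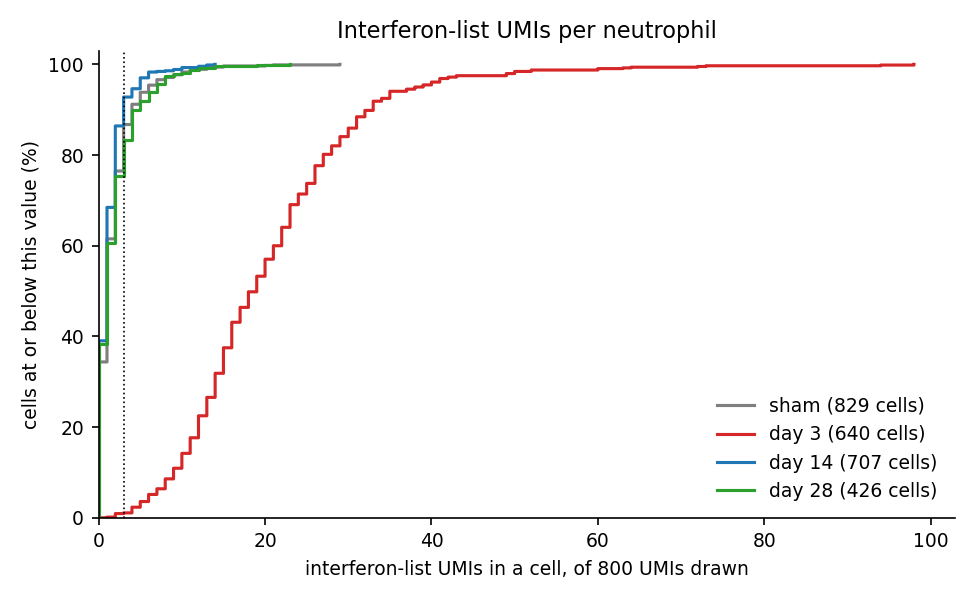
Each line gives the percentage of the neutrophils of a library (vertical axis) that hold at most a given number of interferon-list UMIs among 800 drawn (horizontal axis), and the dotted line marks 3 UMIs. The day 3 line, with a median of 19 UMIs, is shifted to the right of the other 3, whose medians are 1.

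Other cells of the day 3 library also carried these transcripts. At 800 UMIs, 3 or more were found in 71.6% of classical monocytes, 37.0% of T cells, 24.7% of alveolar macrophages and 18.1% of B cells, where the sham shares were 44.3%, 1.18%, 0.743% and 0.240%. The list summed to 3831 CPM in day 3 T cells, and 12 of its 13 genes were at least 2-fold higher in the day 3 neutrophils than in the T cells and alveolar macrophages of the same library. Ifi47, an interferon-induced GTPase, was the exception, at 303 CPM in day 3 neutrophils and 249 in T cells. Classical monocytes of day 3 held Irf7 at 1571 CPM beside 1574 in neutrophils, and Ifi47 at 329 CPM. The part of free RNA in each level was not tested.

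Beyond the list, 50 of the 149 genes higher at day 3 were at least 2-fold above both T cells and alveolar macrophages of that library, a filter added after the values had been seen. Of these 50, 12 belong to the interferon list. They also included Ifit3b (17.8 to 1014 CPM) and Slfn4 (202 to 2051 CPM), a Schlafen family gene of myeloid cells. Rtp4, an interferon-induced chaperone of receptors, was at 185, 1491, 63.7 and 192 CPM in sham, day 3, day 14 and day 28. Ly6g also passed this filter. So did 4 fibroblast genes with high ratios, the collagen genes Col3a1 (1.24 to 144 CPM), Col1a1 (1.24 to 113 CPM) and Col1a2 (1.66 to 101 CPM) and the matrix proteoglycan gene Dcn (3.32 to 116 CPM), so the filter does not remove transcripts of all other cell types. The remaining 99 did not, and among the 10 with the highest ratios these were Ly6a, at 702 CPM in day 3 neutrophils and 3280 in T cells, Zbp1, Xaf1, Mgp and the T cell chemokine Ccl5 (398 and 1577 CPM).

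Cytokine and receptor genes at day 3 moved less. Of the 6 chemokine-list genes tested, 3 were higher (Cxcl10, Ccl4 and Ccrl2), against 9.97% of all genes. Ccl4 was at 199 CPM in sham, 431 at day 3, 174 at day 14 and 310 at day 28, and at 195 CPM in day 3 T cells. Ccrl2, a chemerin-binding receptor of activated neutrophils, was at 466 CPM in sham, 1424 at day 3, 1106 at day 14 and 782 at day 28. Its log2 ratios were 1.59, 1.23 and 0.73, and with TMM scaling that of day 14 was 0.97, under 2-fold. Cxcl10, an interferon-induced chemokine for T cells, was at 43.1, 229, 5.05 and 5.09 CPM, but its day 3 level was below the 359 CPM of T cells and the 1151 CPM of classical monocytes. Cd274, which encodes the inhibitory ligand PD-L1, was at 44.4 CPM in sham, 168 at day 3, 47.0 at day 14 and 65.3 at day 28. At full depth, which was greatest at day 3, it was detected in 9.17%, 35.6%, 12.2% and 8.22% of cells. In day 3 T cells it was at 71.0 CPM and in alveolar macrophages at 129 CPM. None of the 5 tested cytokine genes, the 8 immediate early genes or the 6 NADPH oxidase genes differed 2-fold at day 3, where 9.97% of all genes were higher and 1.2% lower.

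Few genes were lower at day 3. Apart from the gate genes, ribosomal and mitochondrial genes, genes with Gm-number or Rik names and markers of other cell types, the 10 with the lowest ratios were S100a1, Ctsk, Acta2, Ifi27, Zmynd11, Ltf, Cklf, Fam101b, Pabpc1 and Camp, of which S100a1 had a log2 ratio of -2.44 and Camp, at 535 CPM in sham and 263 at day 3, lay just short of 2-fold. Among the markers left out, Scgb1a1 of the airway epithelium had a log2 ratio of -2.53. Without predicted doublets the log2 ratio of Camp was -2.15, and without the Car4 criterion -1.39. S100a1 and Ctsk were more abundant in sham alveolar macrophages (743 and 940 CPM) than in sham neutrophils (102 and 173 CPM). Acta2, smooth muscle actin, was at 154, 39.9, 60.6 and 98.3 CPM in sham, day 3, day 14 and day 28 and at most 2.85 CPM in the T cells of sham and day 3. Zmynd11, Ltf, Cklf, Fam101b and Pabpc1 were under 2-fold in at least 1 other way of processing, and Ltf and Camp rest on the few cells described above.

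Il1b, G0s2 and Thbs1 were at least 2-fold lower at day 28 than in sham. Il1b, the gene of IL-1β, was at 22520 CPM in sham, 17925 at day 3, 14458 at day 14 and 10452 at day 28, and its log2 ratio was -0.64 at day 14, under 2-fold, and -1.11 at day 28. Il1b was thus highest in sham, and lower with each later day among the bleomycin libraries. It was detected in 98.8% to 99.7% of cells, so that the difference lies in UMIs per cell, and T cells held 58.6 to 393 CPM. G0s2, an inhibitor of fat breakdown, followed the same order at 6150, 4593, 2192 and 1278 CPM, with log2 ratios of -1.48 at day 14 and -2.26 at day 28, and T cells held at most 18.9 CPM. Thbs1, which encodes the matrix protein thrombospondin 1, was at 921, 688, 382 and 89.9 CPM. Its log2 ratio at day 28 was -3.22.

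Other genes were split between the early and the late libraries. Slpi, a secreted inhibitor of neutrophil elastase, was at 4044 CPM in sham and 3843 at day 3 but at 384 and 1177 CPM in the day 14 and day 28 libraries. Gdpd3, a phospholipid-cleaving enzyme, was at 578 and 426 CPM in the first 2 libraries and at 24.5 and 35.6 CPM in the last 2, with log2 ratios of -4.09 and -3.69. Both genes were also lower in T cells of the late libraries. Slpi stood at 356 CPM in sham T cells and 164 and 212 CPM in those of day 14 and day 28, and Gdpd3 at 120, 8.25 and 16.4 CPM. Ifitm6, an interferon-inducible membrane protein gene of myeloid cells, was at 227, 531, 43.5 and 65.3 CPM, and Asprv1, a protease gene, at 481, 847, 169 and 187 CPM. T cells and alveolar macrophages of sham held these last 2 at no more than 3.06 CPM. Eno1, the glycolytic enzyme enolase, was at 369, 241, 62.2 and 101 CPM, and in T cells it was lower late as well, at 261, 301, 70.3 and 82.7 CPM.

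Padi4, the enzyme that citrullinates histones when extracellular traps form, was at 102, 77, 38.5 and 33.1 CPM. Ncf4, a cytosolic subunit of the NADPH oxidase, was at 537, 513, 518 and 170 CPM, so that day 28 alone was low. At full depth, which was lowest at day 28, the share of Ncf4-positive cells was 72.6%, 81.9%, 77.5% and 33.3%. Of the 6 oxidase genes 1 other, Cybb, the membrane subunit, was past 2-fold, higher at day 14 and day 28 at 188, 202, 413 and 546 CPM, but T cells of day 28 held 786 CPM and alveolar macrophages 1549 CPM. Of all genes, 5.44% were higher at day 14, and 7.58% were higher and 3.59% lower at day 28. With TMM scaling the log2 ratio of Cybb at day 14 was 0.84, no longer past 2-fold. Rac2, a further oxidase gene, was lower at day 28 with that scaling, as were 165 of 1527 genes. Slc16a3, a lactate exporter, was at 1065, 825, 667 and 334 CPM. Cebpb, a transcription factor of stress-induced granulocyte production, was at 6858, 7532, 3510 and 3607 CPM, with log2 ratios of -0.96 and -0.93 at day 14 and day 28 that lay just under 2-fold. With TMM scaling the ratios were -1.22 and -1.29, past 2-fold.

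Of the 4 genes tested from the tertiary granule list, Mmp8 alone was higher at day 28, where 7.58% of all genes were. The list's median log2 ratio was -0.31. Mmp8, the neutrophil collagenase of tertiary and secondary granules, was at 646 CPM in sham, 539 at day 3, 555 at day 14 and 2067 at day 28. Its log2 ratio at day 28 was 1.66. In 800 UMIs it was detected in 29.4%, 25.6%, 23.9% and 60.8% of cells. Only day 28 stood apart. T cells of that library held 15.4 CPM and alveolar macrophages 53.7 CPM, and with TMM scaling the log2 ratio was 1.29. The other genes tested from the tertiary granule list did not follow. Mmp9 was at 1275, 887, 1206 and 1027 CPM and Hp, haptoglobin, at 2148, 2341, 1299 and 1652 CPM.

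The immediate early genes, which cells transcribe within minutes of a stimulus and also during tissue digestion, are a list of 8, all tested. Of these, 5 were at least 2-fold higher at day 28, where 7.58% of all genes were, and the list's median log2 ratio was 1.04. At day 14 it was 1 (Egr1), where 5.44% of all genes were higher, and at day 3 none, where 9.97% were. Fos was at 3209, 2463, 3388 and 6570 CPM, Dusp1, a phosphatase that ends MAP kinase signals, at 3938, 3096, 5448 and 8156 CPM, and Zfp36, which degrades cytokine mRNAs, at 1119, 875, 1839 and 3573 CPM. Egr1 was at 908, 507, 2341 and 2502 CPM. With TMM scaling Jun, Egr1 and Zfp36 were still at least 2-fold higher at day 28, as were 66 of 1527 genes, and Fos and Dusp1 were not. In T cells Fos was at 705, 503, 834 and 810 CPM and Zfp36 at 234, 301, 388 and 245 CPM, with no 2-fold difference between sham and day 28. The labels give the same digestion protocol for every library, and its part in these values was not tested.

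**Figure D4:**
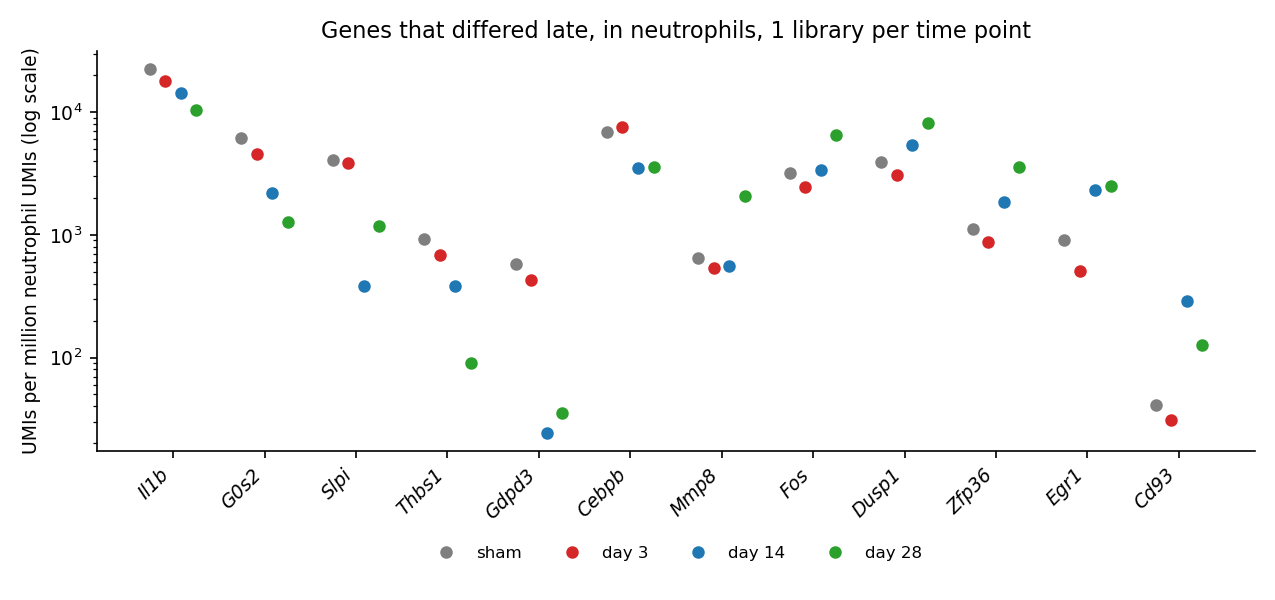
Points give the level of 12 genes in the summed neutrophils of the 4 libraries, in CPM on a log axis, with no intervals drawn. Il1b, G0s2 and Thbs1 descend from sham to day 28, Slpi and Gdpd3 are low in both late libraries, and Mmp8 is high at day 28 alone (2067 CPM).

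Among chemokines, Cxcl2, which recruits further neutrophils through CXCR2, was highest at day 14, at 2578, 2954, 4371 and 2677 CPM. At 800 UMIs, 58.7% of day 14 neutrophils (interval 55.0 to 62.4) carried 3 or more UMIs of the chemokine list without Ccl6, against 34.3% in sham (interval 31.0 to 37.6), 40.8% at day 3 (interval 37.0 to 44.7) and 42.0% at day 28 (interval 37.3 to 46.9). T cells reached 1.24% to 8.03%, and alveolar macrophages 10.5% in sham, 31.7% at day 3, 18.6% at day 14 and 2.52% at day 28. Ccl3 was at 124, 200, 176 and 355 CPM. Of the chemokine list, 1 of 5 tested genes was higher at day 14 (Ccrl2) and 1 of 5 at day 28 (Ccl3). Cxcr4, the receptor of aged cells, was at 790, 812, 1065 and 1224 CPM, with log2 ratios of 0.04, 0.43 and 0.63 that did not reach 2-fold. Cd93, a phagocytic receptor, was at 41.0, 31.0, 287 and 127 CPM, and day 14 T cells held 42.5 CPM. Siglecf, the surface marker of a tumour-associated neutrophil state, was at 15.3 to 33.1 CPM and, at full depth, in at most 7.36% of cells. T cells held 7.79 to 43.2 CPM and alveolar macrophages 105 to 121 CPM, so Siglecf was not above background at this depth. None of the 3 or 4 survival and apoptosis genes tested in each comparison differed 2-fold, with Mcl1, which keeps neutrophils alive, at 3310, 2878, 2652 and 2718 CPM. None of the 4 or 5 tested NF-κB feedback genes did either. Of all genes, 9.97%, 5.44% and 7.58% were higher and 1.2%, 1.95% and 3.59% lower at day 3, day 14 and day 28.

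The remaining lists are short, and their counts are to be read against the shares of all genes that were higher (9.97%, 5.44% and 7.58% at day 3, day 14 and day 28) or lower (1.2%, 1.95% and 3.59%). The 6 receptors of circulating mature cells summed to 2436, 3054, 2867 and 3030 CPM, and none of the 5 tested was past 2-fold in any comparison. The 6 genes of aged or tissue neutrophils summed to 2406, 2292, 3152 and 3443 CPM, and 1 of 4 tested, Itgax, an integrin chain, was higher at day 28 (119, 72.4, 135 and 262 CPM), when T cells held 275 CPM. With TMM scaling the log2 ratio of Itgax was 0.73, no longer past 2-fold. Of the hypoxia and glycolysis genes, Hilpda, a lipid droplet protein, was the 1 of 6 tested that was higher at day 3 (41.0 against 122 CPM), Eno1 was the 1 of 5 that was lower at day 14, and Eno1 and Vegfa, the vascular growth factor, were lower at day 28, with Vegfa at 111, 93.5, 113 and 43.2 CPM. Of 7 tested pattern and lipid receptors, Clec4n (dectin-2) alone was past 2-fold, at day 28, with 169, 143, 260 and 369 CPM and 222 CPM in T cells of day 28. With TMM scaling its log2 ratio was 0.73, under 2-fold, and Trem1, an activating receptor, was lower at day 28 (log2 ratio -1.16). Of the Siglecf neutrophil list, Cd274 was the 1 of 3 tested that was past 2-fold at day 3, and neither of the 2 tested at day 14 and at day 28 was. Ltc4s, the leukotriene C4 synthase gene of that list, was under 100 CPM and not tested, at 45.2 CPM in sham and 6.13 at day 3.

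Many of the genes with the highest ratios in the late libraries were macrophage genes, and apart from Cd93 all of them were less than 2-fold above T cells of the same library. Apart from the markers of other cell types, haemoglobin genes and genes with Gm-number or Rik names, among which Apoe had a log2 ratio of 5.23 at day 14, the 10 highest at day 14 were Spp1, Mmp12, Fn1, AY036118, Ctss, Trem2, Cd93, Ctsl, Lars2 and Mmp19, and those at day 28 added Mfge8, Lpl, Prdx1 and Ctsb. Spp1 (osteopontin) was at 109 CPM in sham, 256 at day 3, 3838 at day 14 and 5365 at day 28 in neutrophils, and at 266, 649, 6525 and 5628 CPM in T cells. A day 28 neutrophil barcode held 14.9 Spp1 UMIs on average, a T cell 39.6 and an alveolar macrophage 188. Only 9 of the 81 genes higher at day 14 and 19 of the 116 at day 28 were 2-fold above both T cells and alveolar macrophages, among them Cd93, Wfdc17, Egr1 and Ccrl2 at day 14 and Mmp8, Zfp36, Crispld2, Fos and Dusp1 at day 28. Of the lower genes, 15 of 29 and 39 of 55 were 2-fold above these cells in sham.

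Transcripts of other cell types differed between the libraries. The 5 interstitial macrophage genes, led by Apoe, summed to 183, 728, 6350 and 4956 CPM in neutrophils of sham, day 3, day 14 and day 28 and to 61.6, 1020, 5588 and 4878 CPM in T cells. The 8 alveolar macrophage genes, led by Chil3, summed to 1908, 373, 1145 and 3025 CPM, and the 4 epithelial genes, led by the club cell product Scgb1a1, to 1558, 258, 1475 and 1494 CPM. The 5 classical monocyte genes summed to 242, 1312, 222 and 242 CPM, with Ly6c2 at 883 CPM at day 3, when T cells held 1166. The 7 dendritic cell genes, led by Cd74, summed to 1175, 2259, 1969 and 520 CPM, and to 1275, 2444, 2333 and 1205 CPM in T cells. The T cell list summed to 146 to 221 CPM, the B cell list to 56.7 to 184 CPM, the NK cell list to 8.48 to 212 CPM, the platelet list to 11.3 to 44.9 CPM and the endothelial list to 7.46 to 18.0 CPM. The 5 nonclassical monocyte genes summed to 416 to 580 CPM, of which Nr4a1, also an immediate early gene, made up nearly all. The 4 erythroid genes were at 91.2, 9.96, 1654 and 111 CPM. The 4 fibroblast genes were at 6.22, 334, 5.44 and 13.6 CPM, where day 3 T cells held 20.3, and Col1a1 was detected in only 2.34% of the day 3 barcodes. The part of these transcripts in the ratios above was not tested beyond the levels in T cells and alveolar macrophages and the TMM scaling. A stricter gate with Csf1r, Ccr2, C1qa and Marco also at 0 left shares of 5.50%, 4.54%, 3.57% and 2.28%, with sham above day 14.

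The RFP transcript, an added feature of the reference taken here as the tdT reporter, was not used to choose the cells. At 800 UMIs it was detected in 77.7% of sham neutrophils (interval 74.7 to 80.5), 73.6% at day 3 (interval 70.0 to 77), 33.1% at day 14 (interval 29.6 to 36.7) and 14.1% at day 28 (interval 10.9 to 17.8). Its level was 2305, 2186, 586 and 214 CPM. Sham and day 3 were high, and both later libraries lay below them. T cells, which should lack it, had 8.28%, 8.45%, 24.6% and 12.4%, with median depths of 6135, 8876, 5154 and 4224.5 UMIs, and a level of 113, 171, 530 and 265 CPM. Alveolar macrophages had 8.76%, 12.1%, 27.2% and 14.2%. The day 28 share was thus not above the T cell share (interval 10.8 to 14.1) or that of alveolar macrophages beyond counting error. The day 14 share was above the T cell share (interval 22.4 to 26.9), but as the level was 586 CPM beside 530 in T cells, 559 in B cells and 603 in alveolar macrophages, no order is read from it. At full depth the neutrophil shares were 93.1%, 93.6%, 71.4% and 32.6%, and the T cell shares 46.5%, 42.7%, 70.4% and 41.6%. Classical monocytes had 38.7% of 106 cells in sham and 35.6% of 634 at day 3 at 800 UMIs, and with 12 and 13 cells later they gave 0 and 3 positive cells. The driver gene Ms4a3 itself was nearly silent in neutrophils, at 1, 0, 2 and 0 UMIs. When tamoxifen was given to the mice of each library was not given in the sources used here, and the time from labelling and the time from injury cannot be told apart.

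**Figure D5:**
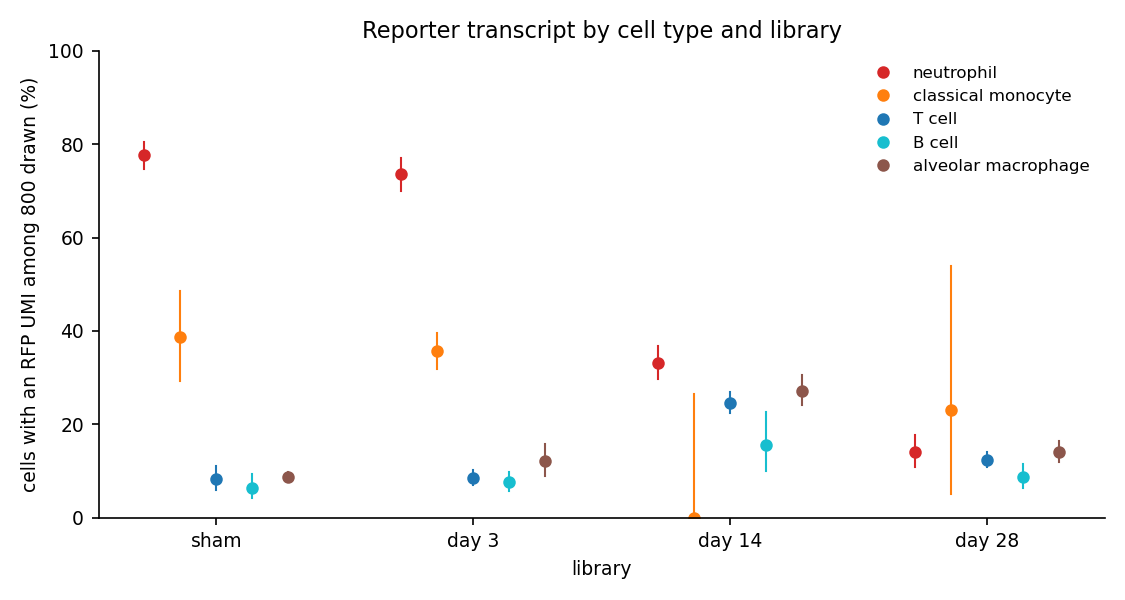
Points give the percentage of cells with at least 1 RFP UMI among 800 drawn, for 5 cell types in each library, and bars give exact 95% binomial intervals. Neutrophils lie far above T cells, B cells and alveolar macrophages in sham and at day 3 and beside them at day 28, where 14.1% of neutrophils and 12.4% of T cells were positive.

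Reporter-positive and reporter-negative neutrophils of the same library were compared, with the library as a block, which is the only replicated test made here. The positive and negative cells numbered 644 and 185 in sham, 471 and 169 at day 3, 234 and 473 at day 14, and 60 and 366 at day 28. By edgeR's quasi-likelihood test with Benjamini-Hochberg adjustment, 1 of 7179 genes differed, and 207 had an unadjusted p under 0.05. It was Mgp, a matrix protein gene of stromal cells. It was lower in positive cells, by a log2 fold change of -2.93 ± 0.35 (SE derived from the F statistic, adjusted p = 0.0163, edgeR). It stood at 3.82 CPM in positive and 20.8 in negative cells of sham, 69.7 and 828 at day 3, 6.56 and 16.9 at day 14, and 11.3 and 21.9 at day 28, lower in all 4 libraries. T cells of day 3 held 270 CPM of it. By the same edgeR test no gene passed without the day 3 library, without the day 28 library or without the library block, with 195, 213 and 49 genes at an unadjusted p under 0.05. It called 2 genes without sham, 29 without day 14, and 343 where the reporter was called at full depth, where positive cells were also deeper. No granule, cytokine, chemokine, interferon or immediate early gene passed, which does not show that the cells were alike, and the median log2 fold change of the 13 interferon genes was -0.09. The negative side mixes cells without label and labelled cells whose transcript was not drawn, as only 57 of the 185 sham cells had no RFP UMI at full depth. At day 14 and day 28 the RFP level of neutrophils was near that of T cells and alveolar macrophages, and the part of free RNA in the split was not tested.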

How the data were processed

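Reads were processed by the authors with Cell Ranger 6.0.0 (mm10, per the submitters' processing notes), and the deposited values are raw counts of UMIs per gene and barcode, with no normalization. Libraries held 89769386 to 167506186 UMIs in 8971 to 12688 barcodes. A barcode was kept if it had between 300 and 8000 genes, between 800 and 60000 UMIs and less than 15% of UMIs from mitochondrial genes, doublets included, and neutrophils were chosen by the rule given in the report. The members, gene lists and limits were chosen with earlier results of these data known. UMIs were summed over the neutrophils of a library and scaled to CPM (2412129 UMIs in sham, 2609666 at day 3, 2572826 at day 14 and 1179668 at day 28). Shares have exact binomial (Clopper-Pearson) and levels exact Poisson intervals of 95%, which cover counting error only. The genes named for each comparison were the 10 with the largest increase and the 10 with the largest decrease in log2(CPM + 10), apart from gate genes, mitochondrial, ribosomal and haemoglobin genes, unnamed gene models and markers of other cells, and in addition the list members that serve as examples. Genes named from the comparison with T cells and alveolar macrophages (Wfdc17, Crispld2, Padi4, Slc16a3, Col3a1 and the other fibroblast genes) were chosen after their values were seen. Reference cells were T cells (Cd3e), B cells (2 or more Cd79a UMIs), classical monocytes (Ly6c2 and Ccr2) and alveolar macrophages (Marco and Chil3) of the same library. Reporter-positive and reporter-negative cells, with at least 20 on each side, were summed per library and tested with edgeR 4.0.16 (R 4.3.3; quasi-likelihood, TMM, filterByExpr, library block), with DESeq2 1.42.0 as an alternative. Tested on simulated data of 7319 genes, this comparison recovered 78% of 2-fold and 100% of 4-fold changes with 1.11% of calls false. The changes were planted only in well-counted genes, with the same spread for every gene and cleanly split sides. Recovery was not measured for low-count genes or for the mixed reporter split of the real cells. Doublets were predicted with Scrublet in scanpy 1.11.5. Positions are from GENCODE M21 (GRCm38), promoter sequences from RefSeq (GRCm38.p6). Figures were drawn with matplotlib 3.10.9, and tables were made with pandas 2.3.3, scipy 1.17.1 and numpy 2.4.6 under Python 3.11.15. The alternatives were other gates, pseudocounts, filters and scalings, no reduction of depth, other reporter limits and 1 library left out. Removing the Car4 criterion and comparing with T cells and alveolar macrophages were chosen after seeing the data.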

Additional observations from a re-analysis of the deposited data

Results flagged for a closer look

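The day 7 library is outside the comparisons, because its barcodes start at 4624 UMIs. It held 115 barcodes that passed the same gate, with a median of 10766 UMIs. In 10.4% of them (12 of 115, 5.51 to 17.5), 10 or more of 800 UMIs came from Camp, Ngp and Ltf, against 0.603% of sham neutrophils. In 6.96% (8 of 115, 3.05 to 13.2), 2 or more came from the replication list, against 0.121% in sham. C1qa, a macrophage gene, was detected in 20.9% of these 115 barcodes at 800 UMIs and in 0.121% of sham neutrophils. These values exceeded those of all sham neutrophils, which are shallower. In a comparison chosen after seeing the data, neutrophils with at least 4624 UMIs were taken from every library. The granule count was then 5 of 34 in sham (14.7%, interval 4.95 to 31.1), not below day 7, with 4 of 106 at day 3, 5 of 54 at day 14 and 1 of 19 at day 28. The replication count was 0 of 34 in sham, whose exact interval reaches 10.3% and so includes the day 7 share, 0 of 106 at day 3, whose interval reaches 3.42% and does not, 2 of 54 at day 14 (3.70%) and 0 of 19 at day 28. C1qa was found in 0 of 34 in sham and 3.77% at day 3, but in 20.4% at day 14 and 15.8% at day 28, beside the 20.9% of day 7.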

How the results depend on the processing

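No paired analysis was possible because each time point has 1 library, so that no replicate number joins the time points. The reporter test, within libraries, has the library as its block. The stricter gate gave neutrophil shares of 5.50%, 4.54%, 3.57% and 2.28% in sham, day 3, day 14 and day 28. A limit of 2% for S100a8 and S100a9 gave 7.38%, 8.37% and 3.72% at day 3, day 14 and day 28, removal of predicted doublets gave 9.78% in sham, and omission of the Car4 criterion 12.3% in sham and 8.87% at day 3. Genes lower at day 3 numbered 29 without doublets, 30 with the stricter gate, 64 without the Car4 criterion, 32 at 50 CPM and 3 above T cells and alveolar macrophages, which left 50 higher. Genes higher at day 14 numbered 53 with the 2% limit, 48 without doublets, 46 with the stricter gate, 51 without the Car4 criterion, 135 at 50 CPM, 51 with CPM averaged over cells, 48 with TMM and 9 in the comparison with other cells, and the lower ones 50 at 50 CPM, 71 with TMM and 15 in that comparison. At day 28, 64 were higher without the Car4 criterion, 190 at 50 CPM, 70 with averaged CPM, 66 with TMM and 19 in that comparison, and 35 and 165 were lower with averaged CPM and TMM. The 13 interferon genes stayed past 2-fold at day 3 in every setting but the comparison with other cells, where 12 did. Their sum was 1870 CPM in sham without the Car4 criterion. With the 2% limit, no doublets, the stricter gate and no Car4 criterion it was 24352, 25858, 25049 and 22558 CPM at day 3, 1591, 1631, 1539 and 1378 CPM at day 14, and 2104, 2231, 2270 and 1707 CPM at day 28, and a limit of 0.5% gave 1351 CPM at day 14 and 1688 CPM at day 28. Without reduction of depth the shares were 40.4%, 38.8%, 40.7% and 41.1% for the secondary granule list, 65.3%, 100%, 62.4% and 57.3% for the interferon list, 57.2%, 83.1%, 87.1% and 62.7% for chemokines, and 93.1%, 93.6%, 71.4% and 32.6% for the reporter, and 2.29%, 1.09% and 2.69% for replication in sham, day 3 and day 14. The replication share was 0.0% with the stricter gate in sham and at day 14, and 0.0% at day 28 with 2 Csf3r UMIs. The reporter test called 91 genes with no filter on low counts, 0 without the library block (49 at an unadjusted p under 0.05, edgeR; DESeq2 with the block called 1), and 343 and 342 with the reporter called at full depth at 1 or 2 UMIs, where positive cells were also deeper (median 3452 against 2930 UMIs at day 3). Leaving out 1 library gave 0 to 29 calls, with 2 without sham, 0 without day 3, 29 without day 14 and 0 without day 28. The cause of these changes was not tested. Of the named genes' log2 ratios, 637 of the values under alternatives stayed on their side of 2-fold, 18 dropped under it (Zmynd11, Ltf, Cklf, Fam101b and Pabpc1 at day 3 and Mmp19 at day 14) and 5, all of Camp at day 3, went past it, down to -2.15 without predicted doublets. No direction changed.

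With 1 library of each time point, mice, digestion and capture cannot be told apart from time. At medians of 2246.5 to 3428 UMIs per cell a gene at 100 CPM is absent from most cells, and the granule-rich state rests on 15 cells.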
